A study of Arabidopsis thaliana with 18 samples.

Results

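At most paused Arabidopsis genes the peak of Ser2P Pol II lay after the polyadenylation site (PAS), and the genes described here are those where it lay before the PAS. Plant native elongating transcript sequencing (pNET-seq) maps the 3' ends of RNAs held by Pol II, here Pol II carrying phosphorylated serine 2 on its C-terminal domain. For each gene the authors looked for the 50-bp window of highest read density between a point 150 bp upstream and a point 300 bp downstream of the gene 3' end. The 3' end pause index (3'PI) is the read density of that window divided by that of the gene body, which stops 301 bp before the PAS. A gene was taken as having an upstream window when the centre of its window in Col-0 lay 50 bp or more before the deposited gene 3' end, and when it was nuclear with at least 20 gene body reads. This held for 1262 of 17292 genes (7.3%). Another 1201 genes had a window centred less than 50 bp before the 3' end, and 14829 (85.8%) had it after the 3' end. A further 61 genes with an upstream window had under 20 gene body reads and were left out. The position of the window in Col-0 therefore chose these genes, and it is given as a description.

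Pol II transcribes past the PAS while the cleavage and polyadenylation machinery cuts the nascent RNA. The exposed RNA end is then degraded by a nuclear 5' to 3' exonuclease, XRN3 in Arabidopsis, which is linked to the release of Pol II. Phosphorylation of serine 2 builds up towards gene 3' ends and helps to recruit 3' end processing factors, and a pause near the PAS is known from many genes in plants and animals. Plant 3' end signals are loosely conserved, with T-rich and TGTA-containing elements before the cleavage site and an A-rich element close to it.

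All samples were 14-day-old seedlings. The xrn3 group carried a T-DNA insertion in XRN3 (xrn3-3). The GEX1A group was Col-0 treated for a short time with herboxidiene (GEX1A), a small molecule that blocks the spliceosome, and the DMSO group was Col-0 given the solvent in the same way. The Col-0 group was the untreated wild type. Each of these 4 groups had 2 pNET-seq libraries, and the deposited tables hold 1 pooled value per gene and group, so no SD and no test across replicates could be computed, and every value below is such a pooled value.

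The Col-0 table held 12224996 gene body reads and 2601593 window reads over 18010 nuclear genes. The table labelled xrn3 held 25790239 and 5821401, that of GEX1A 3671597 and 425278, and that of DMSO 3874349 and 538351. The upstream-window genes had a median of 195 window reads in the table labelled xrn3, 17 in GEX1A, 20 in DMSO and 79 in Col-0, so the position of a window was least sharply defined in the 2 treatment tables. The XRN3 gene itself had 9931 gene body reads in the table labelled xrn3, against 302 in Col-0, with 215 in GEX1A and 84 in DMSO. Reads over this gene thus did not go down in the libraries labelled xrn3, and that name is used here only as their label.

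The position of the windows ran from 124.5 bp to 50.5 bp before the 3' end, with a median of 90.5 bp (quartiles 115.5 and 69.5 bp). They were not spread evenly. At 240 genes (19%) the centre was at the outermost place any window reached, 124.5 bp before the 3' end on the plus strand and 120.5 bp on the minus strand, so the highest density at those genes could lie further upstream. At the other side, 35 genes sat at the limit itself, 50.5 bp before the 3' end, with a median 3'PI of 6.28. Window centres fell on different steps by strand. The nearest one inside the limit was 50.5 bp before the 3' end on the minus strand and 54.5 bp on the plus strand. The plus strand held 44.8% of upstream-window genes and 50.5% of other genes. The 74 genes within 5 bp inside the limit had a median of 9.285, and the 77 genes up to 5 bp outside it had a median of 7.88. Just inside were CDF3, encoding a DOF transcription factor (3'PI 2.30), UCC2, encoding uclacyanin 2 (1.82), and BS14A (102.74). Just outside were MCCB, a subunit of 3-methylcrotonyl-CoA carboxylase (6.71), TRX-M4, a chloroplast thioredoxin (22.62), and RTFL8 (2.39).

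**Figure D1:**
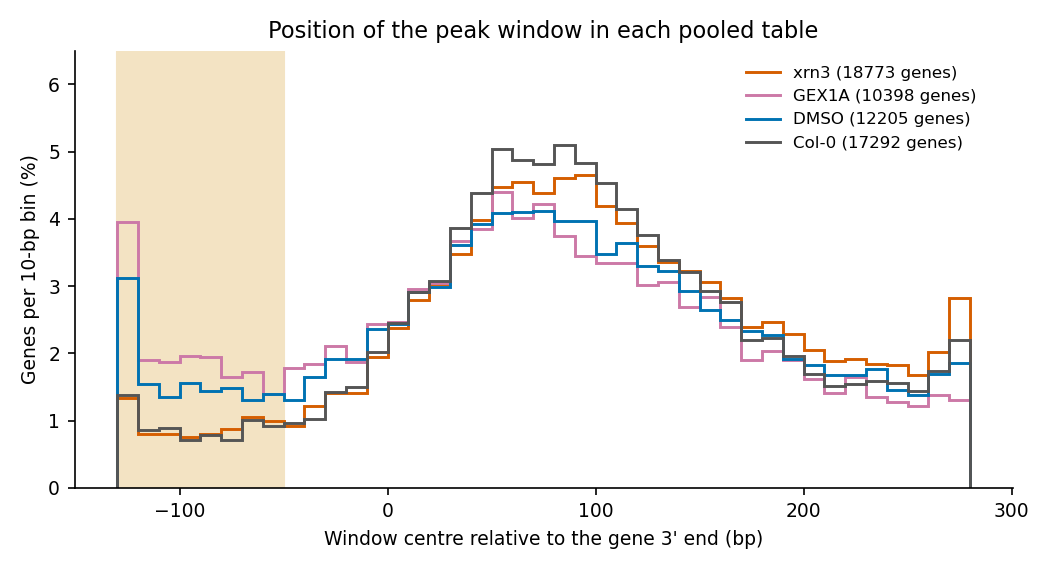
Share of genes (%, y axis) by distance of the window centre from the deposited gene 3' end (bp, x axis, 10-bp bins) in each pooled table, for nuclear genes that had 20 or more gene body reads in that table. The shaded range holds the upstream windows, which made up 7.41% of genes in the table labelled xrn3, 16.4% in GEX1A, 13.2% in DMSO and 7.3% in Col-0, with a pile-up in the outermost bin.

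The deposited 3' end matters for this definition. The newer RefSeq annotation of the same genome (Araport11 gene models) placed the 3' end at least 50 bp further downstream at 504 of 1260 upstream-window genes (40%) and at 7583 of 15967 other genes (47.5%). With the annotated 3' end in place of the deposited one, and the window where it is, 4469 genes (25.9%) would have an upstream window. In the other direction, 122 of the upstream-window genes had a deposited 3' end at or before the furthest annotated stop codon of any transcript. At 101 of those the window centre lay in coding sequence. The 122 genes were 9.78% of the 1248 genes with such a 3' end. Upstream-window genes were 6.82% of the 1011 genes whose 3' end lay 1 to 99 bp after that stop codon. They were 7.14% of the 14963 genes where it lay 100 bp or more after.

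Most upstream windows lay in the 3' UTR. The centre fell in the 3' UTR at 1034 genes (81.9%), in coding sequence at 161 (12.8%) and in an intron at 20 (1.58%). At 38 genes this differed between transcripts, at 7 the centre was outside every annotated transcript, and 2 genes were not found in the annotation. Windows in the 3' UTR had a median 3'PI of 5.865 and those in coding sequence one of 3.38. The few intronic windows had a median of 9.04. An annotated transcript of the same gene ended before the window centre at 197 of 1260 genes (15.6%), against 12274 of 15963 other genes (76.9%). The annotated transcript end nearest to the centre lay 25 to 150 bp before it at 42 upstream-window genes (3.33%) and at 7505 other genes (47%). Both contrasts depend on the window position that chose these genes, since most other windows lie after the 3' end. They therefore do not show whether upstream windows follow shorter transcripts. The second count misses a shorter transcript wherever another end lay nearer to the centre, as at GC5 and AT5G60390. The full number of upstream windows that followed a shorter transcript at that distance was not counted.

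The sequences below show what these windows look like. They were read from the RefSeq copy of the TAIR10 genome, 5' to 3' on the transcribed strand, with TGTA and runs of 4 or more T in capitals. The first set gives the central 30 bases of windows in the 3' UTR that stayed within 5 bp of the same place in all 4 tables.
RBCS1A, chr1:25048244-25048273, minus strand: tcaatttgatatgcatatcaacaaaaagaa
TIP2, chr3:9722549-9722578, minus strand: acggtttaataactataattgagaaaacca
GC5, chr1:30027741-30027770, minus strand: caatccatccatataggaaaactgtgtgac
BS14A, chr3:21542395-21542424, minus strand: ttacttcctttaTGTAtaaatagcgactgt
AT1G74050, chr1:27847088-27847117, minus strand: actatcgatcctgTTTTTgattgtgagctt
BRI1, chr4:18328752-18328781, plus strand: gtattaaatttcgactgatcatgttcatgt
These 30 bases held between 7 and 14 T and between 5 and 15 A. The first 3 are richer in A and the last 3 richer in T.

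The second set gives whole 50-base windows outside the 3' UTR. That of SAUR63 lay wholly in coding sequence, and that of AT3G06310 in an intron of 1 transcript and past the end of the other 2. In MT1A the window crossed the end of the intron, whose last 2 bases are in capitals instead.
SAUR63, chr1:10304603-10304652, minus strand: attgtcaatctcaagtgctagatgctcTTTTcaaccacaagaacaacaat
AT3G06310, chr3:1912901-1912950, minus strand: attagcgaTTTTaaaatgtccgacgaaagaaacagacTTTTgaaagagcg
MT1A, chr1:2338955-2339004, minus strand: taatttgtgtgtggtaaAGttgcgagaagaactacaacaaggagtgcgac

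The third set gives the central 30 bases of the window of 2 genes in Col-0 and in the table labelled xrn3, where it lay after the deposited 3' end.
NOI in xrn3, chr5:22605274-22605303, plus strand: gaaaacgaacaagaacttgatatatcataa
NOI in Col-0, chr5:22605134-22605163, plus strand: gtgtctataTGTAatgattctcttggggtc
AT5G60390 in xrn3, chr5:24291046-24291075, plus strand: gacttaggttctcaatcaacaaacagaaat
AT5G60390 in Col-0, chr5:24290946-24290975, plus strand: cgTTTTaagatctaTGTAagagatagggtt
In both genes the Col-0 stretch had more T (13 in NOI and 11 in AT5G60390) than the xrn3 stretch (6 and 7), and it alone held TGTA.

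Over all genes, upstream windows also held more T and less A than the windows of the other genes, most of which lie after the 3' end. Upstream windows averaged 34.4% T and 30.3% A, and the windows of the other genes 30.4% T and 35.2% A. The letters TGTA were found on the transcribed strand in 39.9% of upstream windows and 21.2% of other windows, TTTT in 42.3% and 33%, and AAAA in 32.6% and 44.7%. The polyadenylation hexamer AATAAA was found in 4.68% and 6.16%. These words can overlap each other, and no match was sought on the other strand. The place along the gene went with these shares. In the 50 bases centred 90 bp before the 3' end of the other genes, where they have no window, T averaged 39.1%, TGTA was found in 42.4%, TTTT in 54.6% and AATAAA in 3.96%. The upstream windows therefore did not hold more TGTA or TTTT than the same place in other genes.

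Splice sites were rare in the windows. A listed 3' splice site lay within the window at 14 genes (1.11%), against 3 of 16030 other genes (0.0187%), and a 5' splice site at 2 genes, against 0. In the stretch from 150 to 50 bp before the 3' end, whether or not a window was there, a 3' splice site was listed at 2.38% of upstream-window genes and 1.59% of other genes. MT1A, encoding a metallothionein, had the most window reads of the 14. Its window held 1897 reads in the table labelled xrn3, 208 in GEX1A, 657 in DMSO and 1030 in Col-0, and its 3'PI was 2.13, 3.19, 2.64 and 2.14 in the same order. RCI2B, a small cold-responsive membrane protein, kept its window on a 3' splice site 120.5 bp before the 3' end in all 4 tables. CDKC2, a kinase of the group that phosphorylates the Pol II C-terminal domain, had a 5' splice site in its window. Its 3'PI was 26.82 in the table labelled xrn3, 3.4 in DMSO (6 window reads) and 10.65 in Col-0, and it was not listed for GEX1A.

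Small RNA genes lay under 8 windows (0.634%), against 58 windows of other genes (0.362%). The gene with the most window reads of all, AT2G35750, was among them. Its window, 60.5 bp before the 3' end, overlapped an annotated small nucleolar RNA, and it held 3553 reads in the table labelled xrn3, 3590 in GEX1A, 3369 in DMSO and 3281 in Col-0. These counts were nearly level, although the tables differ several fold in depth. AT4G30993 also had its window over a small nucleolar RNA. Its 3'PI was 15.07 in the table labelled xrn3, 127.3 in GEX1A, 91.02 in DMSO and 22.05 in Col-0. The reads of mature small RNAs and of nascent RNA cannot be told apart in these counts.

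The 3'PI of the upstream-window genes was low. Its median in Col-0 was 5.09 (quartiles 2.585 and 14.5, range 1.31 to 149.76), against 17.0 at the other genes (quartiles 6.3 and 36.0). A 3'PI under 2 was found at 14.3% of them and at 3.33% of other genes. The windows themselves held about as many reads, with a median of 79 against 94, while the gene bodies held more, with 344.5 reads against 192, or 187 against 92.8 reads per kb. The median TPM was 24.7 against 17.5. Upstream windows made up 4.72%, 5%, 6.62% and 12.9% of genes when all genes were ranked by gene body read density and cut into 4 equal groups, lowest first. Genes are not replicates and the window was picked in the same reads, so no test was made between these sets.

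Gene structure differed less. Upstream-window genes had a median of 3 introns against 4, and a length of 2273 bp against 2313 bp. No intron was present in 201 of them (15.9%), against 11.9% of other genes, and 10 or more introns in 13.2% against 18.5%. The last exon was longer, with a median of 565 bp against 412 bp, and so was the distance from stop codon to 3' end, 261 bp against 202 bp. The window centre followed the stop codon by a median of 170.5 bp, against 296.5 bp in the other genes. The next gene was 895 bp away, against 564 bp. A gene on the other strand lay under the window at 12.8%, against 29.6%. This share and the distance from stop codon to window centre depend on the window position that chose these genes. They are therefore not differences of gene structure. The gene overlapped another gene anywhere along its length at 21.9%, against 22.5%.

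Within every class of intron number the upstream-window genes had the lower median 3'PI. It was 2.55 at the 201 genes without intron (other genes 4.36), 2.98 at 173 genes with 1 intron (8.25), 3.94 at 179 genes with 2 (11.2), 5.36 at 235 genes with 3 to 4 (16), 9.74 at 307 genes with 5 to 9 (24.8) and 17.1 at 167 genes with 10 or more (37.6). The median was thus higher with more introns in both sets of genes. Spearman's rho between them over the upstream-window genes was 0.51 in the table labelled xrn3 and 0.51 in Col-0, and it was 0.28 in GEX1A and 0.45 in DMSO. For the other genes it was 0.54 and 0.54, and 0.10 and 0.43. These are descriptions across genes, which share their libraries and the depth of those libraries.

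**Figure D2:**
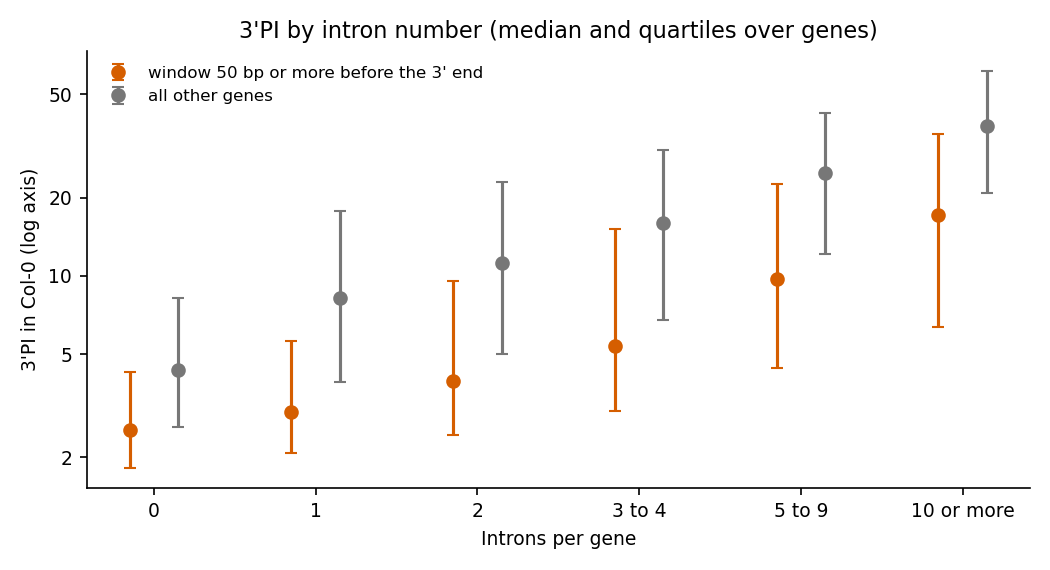
3'PI in Col-0 (y axis, log scale) by number of introns (x axis) for genes with an upstream window (orange) and all other genes (grey). Points are medians over genes and bars run between the quartiles. The orange median climbs to 17.1 at 10 or more introns, with 2.55 at no intron, and lies below the grey one in each class.

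Among upstream-window genes whose bodies held 100 or more reads, the highest 3'PI was found at GC5, AT3G06310, AT5G11490, PNG1, BS14A and ECT10. GC5, a golgin with 20 introns, had a 3'PI of 200.68 in the table labelled xrn3, 10.91 in GEX1A, 34.31 in DMSO and 128.71 in Col-0, with its window 85.5 to 90.5 bp before the 3' end in each. AT3G06310, a Cox19-like protein gene, had 117.43, 40.42, 116.49 and 121.87 in the same order, always 120.5 bp before the 3' end. Gene body reads behind the 2 treatment values were few, 20 in GEX1A and 15 in DMSO.

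AT5G11490, an adaptin family gene, had a 3'PI of 161.89 in the table labelled xrn3, 7.54 in GEX1A, 32.23 in DMSO and 109.31 in Col-0. PNG1, a peptide-N-glycanase, had 107.04, 4.84, 20.78 and 106.45, but its window lay after the 3' end in GEX1A and DMSO, by 44.5 and 24.5 bp. BS14A, a SNARE protein of the early secretory pathway, had 105.1, 39.48, 98.26 and 102.74, with the window at 50.5 bp in all 4 tables. ECT10, a YTH-domain protein of the family that reads m6A in RNA, had 59.66, 33.19, 76.72 and 99.85. In each of these 6 genes, which were chosen on their Col-0 value, the GEX1A value was the lowest. That value rested on 7 window reads at AT5G11490, 8 at PNG1, 31 at AT3G06310, 40 at GC5, 66 at BS14A and 68 at ECT10.

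Among the genes with the most window reads, several had a low 3'PI. RBCS1A, the small subunit of Rubisco, had 5218 window reads in the table labelled xrn3, 397 in GEX1A, 472 in DMSO and 2368 in Col-0, and its window lay 100.5 bp before the 3' end in all 4. The 3'PI there was 2.91, 3.84, 3.3 and 2.79 in the same order. TIP2, a tonoplast aquaporin, had a 3'PI of 1.47, 2.68, 2.23 and 1.45, with the window 120.5 bp before the 3' end throughout. RTFL17, a small ROTUNDIFOLIA-like peptide, had 1.60, 1.89, 1.63 and 1.62, also at 120.5 bp. AT1G32700, a PLATZ family transcription factor, had higher values, 10.06, 8.87, 11.92 and 9.39. Its window lay 49.5, 49.5, 34.5 and 54.5 bp before the 3' end in the same order, so it passed the limit only in Col-0.

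The other genes chosen by window reads were CAB1 (2593 window reads in Col-0), a light-harvesting chlorophyll-binding protein, and AILP1 (2216), an aluminium-induced protein gene whose 3'PI was 3.28 in the table labelled xrn3, 2.09 in GEX1A, 5.87 in DMSO and 3.66 in Col-0. CAB1 has near-identical neighbours, among them CAB2, which also had an upstream window, 115.5 bp before the 3' end in all 4 tables. Reads that fit several copies were not counted, so the values of CAB genes are uncertain.

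Of the 1262 genes, 1221 (96.8%) were listed in the table labelled xrn3, 733 (58.1%) in GEX1A and 910 (72.1%) in DMSO. The shares of other genes listed were higher, 99.1%, 70.5% and 82.9%. No other table listed 28 of the 1262 genes. Genes without a called pause are not listed, so the shares that follow cover listed genes only. In the table labelled xrn3 the window was again 50 bp or more before the 3' end at 874 of 1221 (71.6%, 95% Wilson interval 69.0 to 74.0%), against 307 of 15880 other genes (1.93%). Over all genes that share was 6.91%. In GEX1A it was upstream at 529 of 733 (72.2%, 68.8 to 75.3%), against 11.7% of other genes and 15.4% of all genes. In DMSO it was upstream at 657 of 910 (72.2%, 69.2 to 75%), against 8.31% of other genes and 12.4% of all. These intervals and all others here cover counting error over genes only. The window thus stayed upstream at about the same share of listed genes in the 3 tables.

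Measured as a shift of at most 25 bp from Col-0, the window stayed at 70.5% of upstream-window genes in the table labelled xrn3, where 78.8% of other genes kept theirs and 78.2% of all genes did. In GEX1A it stayed at 63.6%, against 53.3% of other genes and 53.9% of all. In DMSO it stayed at 66.9%, against 59.4% and 59.9%. The share at upstream-window genes was thus the lower of the pair in xrn3 and the higher in the 2 treatment tables, which have the fewest reads. These differences were not tested, since genes share their libraries.

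When the window did not stay upstream it mostly lay after the 3' end, at 21.8% of listed upstream-window genes in the table labelled xrn3, 24.1% in GEX1A and 21.5% in DMSO. Between 3.68% and 6.63% had it less than 50 bp before the 3' end. The deposited table gives the densest window only, so a gene with peaks on both sides of the PAS shows as either.

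**Figure D3:**
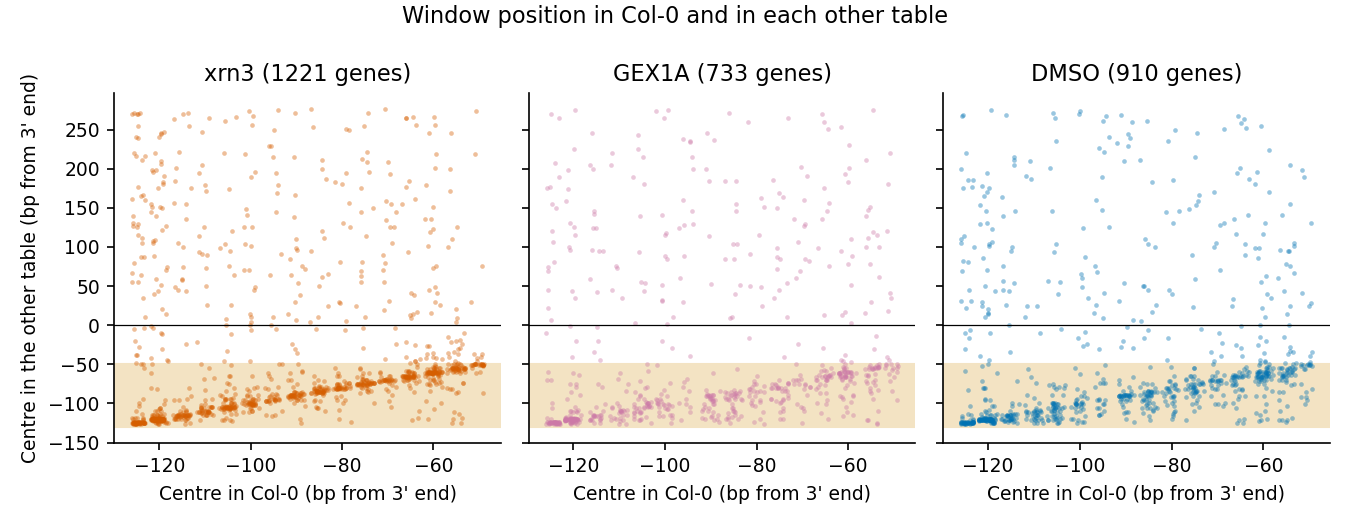
Window centre in the table labelled xrn3, in GEX1A and in DMSO (y axis, bp from the gene 3' end) against the centre in Col-0 (x axis, bp) for the upstream-window genes, 1 point per gene with a small random offset of up to 1.5 bp. Points in the shaded range stayed upstream (71.6%, 72.2% and 72.2%), most of them on the diagonal, and the rest are scattered after the 3' end.

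The number of reads in the window went with whether it stayed. In the table labelled xrn3 it was upstream at 33.3% of 24 genes with under 10 window reads there, 40.4% of 114 with 10 to 29, 60.2% of 249 with 30 to 99 and 80.3% of 834 with 100 or more. In GEX1A the share was 62.8% under 10 reads, 70.1% at 10 to 29, 84.9% at 30 to 99 and 80% of 75 genes at 100 or more. In DMSO it was 61.9%, 74.5%, 75% and 82.7% in the same classes. A part of the windows that moved thus rests on few reads, and how large a part was not tested. Genes whose window was at the outer limit of the search had it upstream at 69.9% in xrn3, 76.7% in GEX1A and 72.4% in DMSO.

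The place of the window in the gene went with whether it stayed in xrn3. Windows in coding sequence stayed upstream there at 55.7% of 140 genes, and windows in the 3' UTR at 74.5% of 1017. Genes with coding windows also had fewer gene body reads in Col-0, with a median of 126 against 437, and the part of this in the difference was not tested. In GEX1A the shares were 69.8% of 53 for coding windows and 72.7% of 642 for 3' UTR windows, and in DMSO 71.6% of 74 and 72.4% of 791. By intron number, windows stayed upstream in xrn3 at 71.6% of genes without introns, 72.5% with 1 to 4 and 70.4% with 5 or more. In GEX1A the values were 75.9%, 70.4% and 72.7%, and in DMSO 79.3%, 76.7% and 65.7%.

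All 4 tables listed 656 of the genes (52%), against 66.1% of other genes. The window was upstream in every table at 367 of the 656 upstream-window genes (55.9%). Of all genes listed in the 4 tables, 3.8% had it upstream in xrn3, GEX1A and DMSO. It was within 25 bp of the Col-0 position in every table at 326 (49.7%), against 41.4% of other genes and 41.9% of all. The 367 genes had a median 3'PI of 10.63 in Col-0, 3 introns and 171 window reads. The other 289 had a median of 9.69, 4 introns and 118 window reads. AT2G35750, RBCS1A, RTFL17, AILP1, AT2G45180 and TIP2 had the most window reads among the 367. AT2G45180, a lipid-transfer protein family gene, had a 3'PI of 1.98 in the table labelled xrn3, 1.91 in GEX1A, 1.86 in DMSO and 1.65 in Col-0, with the window 79.5 to 84.5 bp before the 3' end.

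At 36 genes (5.49%) the window lay after the 3' end in xrn3, GEX1A and DMSO. AT5G60390, a translation elongation factor gene, had it 40.5 bp after the 3' end in the table labelled xrn3, 110.5 bp in GEX1A and 40.5 bp in DMSO, against 59.5 bp before it in Col-0. NOI, of the RIN4 family, had it 20.5, 95.5 and 105.5 bp after the 3' end, against 119.5 bp before it in Col-0. Its 3'PI was 32.33 in the table labelled xrn3, 14.7 in GEX1A, 17.62 in DMSO and 27.42 in Col-0. AGT3, an aminotransferase, had the window 55.5, 45.5 and 45.5 bp after the 3' end, against 124.5 bp before it in Col-0, with a 3'PI between 1.56 and 2.87. ERF7, a transcription factor of the ethylene response factor family, had it 24.5, 184.5 and 24.5 bp after, against 75.5 bp before. At AT5G60390, AGT3 and ERF7 the 3'PI differed little between tables labelled xrn3 and Col-0 (4.55 and 4.05, 2.8 and 2.86, 1.87 and 1.79) although the window had moved.

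**Figure D4:**
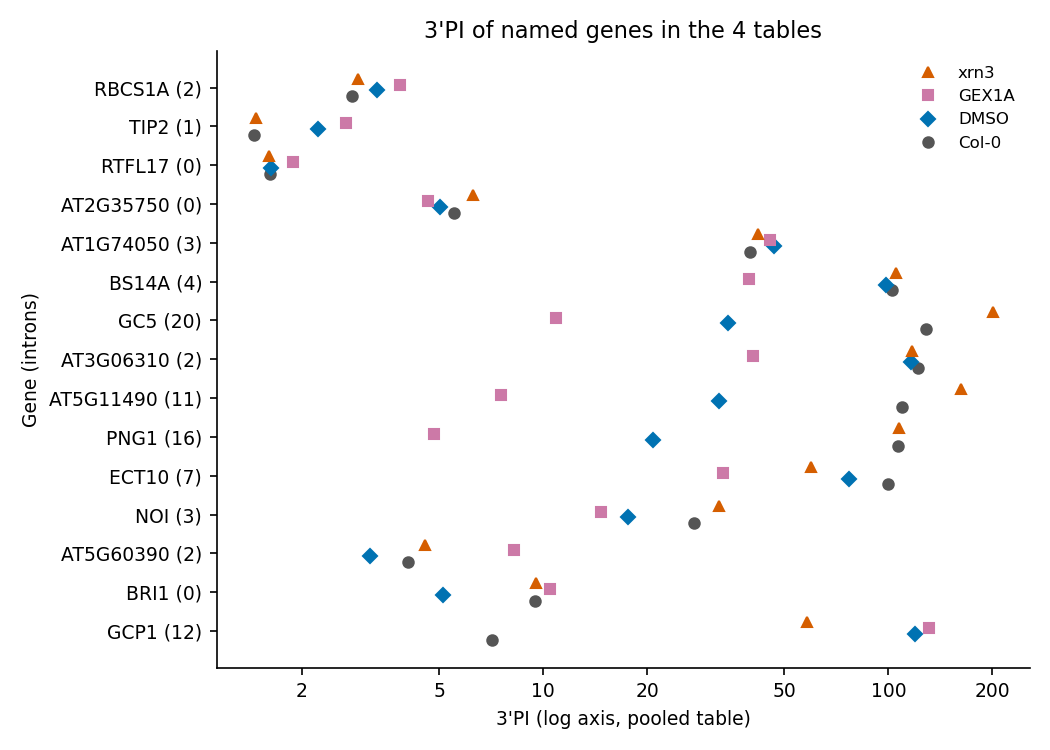
3'PI (x axis, log scale) of 15 named genes with an upstream window in Col-0 in the table labelled xrn3 (triangles), GEX1A (squares), DMSO (diamonds) and Col-0 (circles). The number of introns stands in brackets. The first 4 genes are low in all tables, GC5 spreads between 10.91 and 200.68, and GCP1 has its lowest value, 7.12, in Col-0.

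Window and gene body counts were next compared gene by gene between the libraries labelled xrn3 and Col-0 with Fisher's exact test, adjusted by Benjamini and Hochberg over all 17714 genes. The test compares pooled libraries, not genotypes, since the variation between libraries does not enter it. Of 1221 upstream-window genes, the 3'PI was higher at 146 (12%) and lower at 46 (3.77%), where 11.3% and 3.66% of all genes were called. Both shares are near the background. The median log2 ratio was 0.15, against 0.17 at the other genes, and the median 3'PI was 5.99 in the libraries labelled xrn3 and 5.32 in Col-0.

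The largest called rise, among genes whose bodies held 100 or more reads, was at GCP1, a glycoprotease. It had a 3'PI of 57.92 in the libraries labelled xrn3 and 7.12 in Col-0 (log2 ratio 3.02, adjusted p = 3.13e-17, Fisher's exact test). The window lay 125.5 bp after the 3' end in xrn3 and 69.5 bp before it in Col-0, where it rested on 16 reads. In GEX1A and DMSO the window was 130.5 bp after the 3' end too, with a 3'PI of 131.16 and 119.58. ELO3, a subunit of the Elongator complex, had a 3'PI of 8.92 and 3.27 with the window in the same place (log2 ratio 1.45, adjusted p = 0.0106 by Fisher's exact test, 94 and 11 window reads). ZWI, a kinesin-like protein, had 5.53 and 2.04.

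With the same minimum, the largest called fall was at AT5G22080, a DnaJ-domain protein gene, with a 3'PI of 9.04 in the libraries labelled xrn3 and 38.46 in Col-0 (log2 ratio -2.09, adjusted p = 7.08e-23, Fisher's exact test). Its gene body held 2201 reads in xrn3 and 198 in Col-0, and its window 311 and 119, so the gene body differed by more than the window. The window lay 44.5 bp after the 3' end in xrn3 and 60.5 bp before it in Col-0. AT5G15980, a pentatricopeptide repeat protein, had 3.79 and 9.83, and AT4G37190 had 8.11 and 20.19, each with the window within 5 bp of its Col-0 place.

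Between GEX1A and DMSO, 659 upstream-window genes were listed in both tables. The 3'PI was higher in GEX1A at 8 of them (1.21%) and lower at 94 (14.3%), where 1.31% and 16.6% of the 11590 genes tested were called. The median 3'PI was 5.47 in GEX1A and 7.29 in DMSO, with a median log2 ratio of -0.18, against -0.43 at the other genes. By intron number the median log2 ratio was 0.20 without introns, 0.03 with 1, -0.03 with 2, -0.24 with 3 to 4, -0.58 with 5 to 9 and -0.93 with 10 or more. In the other genes it was 0.29, 0.10, -0.07, -0.30, -0.74 and -1.41. The fall in GEX1A thus went with intron number in both. It was smaller from 2 introns on at the genes chosen for an upstream window in Col-0. These genes also had a lower median 3'PI in DMSO in every class of intron number. With 10 or more introns, over the genes listed in each table, it was 11.44 in DMSO and 6.16 in GEX1A. The other genes had 17.73 and 7.3. The difference in the fall, and the part of the lower DMSO value in it, was not tested.

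**Figure D5:**
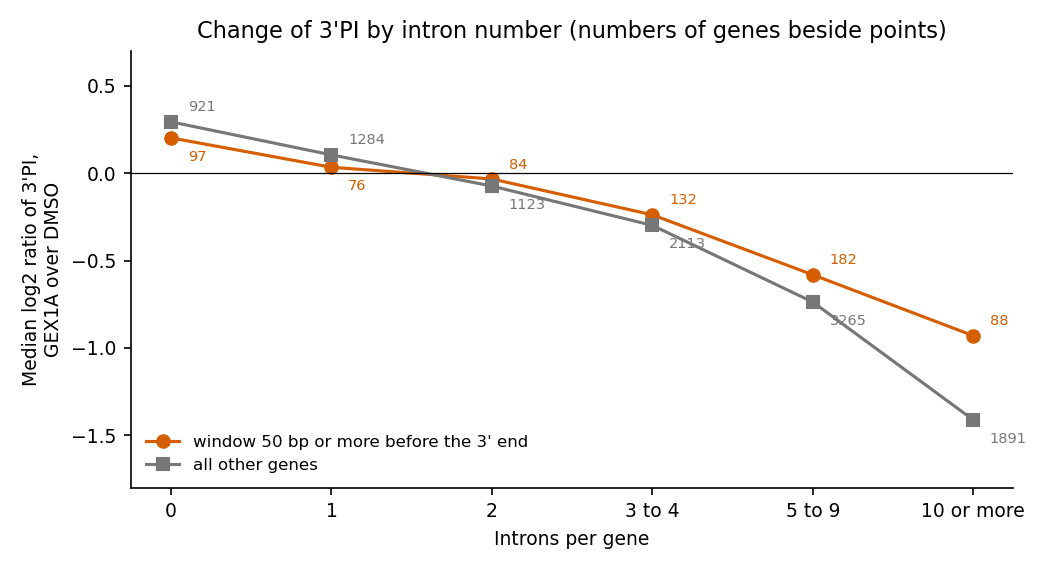
Ratio of the 3'PI in GEX1A over DMSO as a log2 median over genes (y axis) by number of introns (x axis) for genes with an upstream window in Col-0 (orange) and all other genes (grey), with the number of genes beside each point. The orange line ends at -0.93 and the grey one at -1.41, and both start above 0.

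The largest called falls, with the same minimum of 100 gene body reads in both tables, were at intron-rich genes. AT1G05960, an ARM repeat protein gene with 21 introns, had a 3'PI of 2.46 in GEX1A and 31.09 in DMSO (log2 ratio -3.66, adjusted p = 5.46e-15, Fisher's exact test) with the window 120.5 bp before the 3' end in both. AT1G63770, a peptidase with 31 introns, had 5.02 and 48.24 with the window 90.5 bp before the 3' end in both, and AT1G36050, with 13 introns and its window in coding sequence, had 2.71 and 19.88. The GEX1A windows of AT1G05960, AT1G63770 and AT1G36050 held only 10, 10 and 9 reads. GC5 was lower as well (10.91 in GEX1A and 34.31 in DMSO, log2 ratio -1.65, adjusted p = 1.72e-07, Fisher's exact test).

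The largest called rises, among genes whose bodies held 100 or more reads in both tables, were at genes with few introns. BRI1, the brassinosteroid receptor kinase, has none. The kinase gene had a 3'PI of 10.46 in GEX1A and 5.14 in DMSO (log2 ratio 1.03, adjusted p = 0.00535, Fisher's exact test), on 69 and 39 window reads. AT1G26800, a RING/U-box protein gene without introns, had 2.56 and 1.75, and AT5G60390, with 2 introns, had 8.25 and 3.14 with the window at different places. Larger called rises stood on fewer reads and were named after their values were seen. AT1G31240 had a 3'PI of 23.13 in GEX1A and 4.82 in DMSO on 16 and 32 gene body reads, and AT5G09510 had 12.29 and 3.2 on 39 and 71. BAK1, the co-receptor of BRI1, has 11 introns. Its 3'PI was 2.32 in GEX1A and 10.16 in DMSO, with the window after the 3' end in both, against 23.05 and an upstream window in Col-0.

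Unspliced reads at splice sites were set beside these values, from the tables of chromatin-bound RNA (CB-RNA) for xrn3 and Col-0 and of total RNA for GEX1A and DMSO. The ratio of intronic to exonic reads at 5' splice sites, as the median over genes with at least 10 exonic reads, was 0.246 at upstream-window genes and 0.228 at other genes in CB-RNA labelled xrn3, and 0.333 and 0.3 in CB-RNA of Col-0. In total RNA it was 0.282 and 0.234 in GEX1A, and 0.0635 and 0.0595 in DMSO. The ratio in GEX1A was thus several fold that in DMSO in both sets of genes. Within classes of intron number the 5' splice site ratio was higher at upstream-window genes in most classes. With 10 or more introns it was lower at them in CB-RNA, 0.247 against 0.259 in Col-0 and 0.192 against 0.198 in xrn3. With 1 intron it was lower at them in xrn3 and in DMSO. At 3' splice sites the medians, upstream-window genes first, were 0.343 and 0.317 in Col-0 and 0.259 and 0.244 in xrn3. They were 0.26 and 0.229 in GEX1A, and level in DMSO at 0.0615 and 0.0615. By class, the 3' ratio was lower at upstream-window genes in DMSO with 2, 5 to 9 and 10 or more introns. It was also lower in GEX1A with 5 to 9, and in both CB-RNA groups with 1 and with 10 or more. In the remaining classes it was higher.

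By function, upstream windows were found at 5 of 32 core and linker histone genes (15.6%) and 9 of 60 nuclear photosynthesis genes (15%), where 7.3% of all genes had one. Both lists have dense gene bodies, with medians of 2355 and 4483 reads per kb over the list against 95.9 over all genes. The 5 histone genes had a median 3'PI of 1.6. HTB1, a histone H2B, had 1.64 in the libraries labelled xrn3, 1.84 in GEX1A, 1.6 in DMSO and 1.48 in Col-0. HIS1-3, a linker histone, had 1.78, 2.7 and 1.4 in xrn3, DMSO and Col-0 and was not listed for GEX1A. The 9 photosynthesis genes, among them RBCS1A, CAB1 and CAB2, kept the window upstream at 9 of 9 listed in xrn3, 7 of 8 in GEX1A and 7 of 8 in DMSO.

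The share was 12 of 282 for cytosolic ribosomal proteins (4.26%), 11 of 124 for heat shock proteins and chaperones (8.87%), 10 of 128 for receptor kinases (7.81%), 3 of 49 for splicing factors (6.12%), 7 of 116 for NLR immune receptors (6.03%), 8 of 145 for F-box proteins (5.52%) and 18 of 335 for zinc finger proteins (5.37%). None of the 11 genes for 3' end processing factors had an upstream window. Among ribosomal proteins, AT1G74050, of the L6 family, had a 3'PI of 41.83 in the libraries labelled xrn3, 45.26 in GEX1A, 46.64 in DMSO and 39.68 in Col-0, with the window 55.5 to 60.5 bp before the 3' end. These 4 values lie close together. The DnaJ gene AT5G06130 had 49.29, 50.79, 56.21 and 92.48 in the same order, and CCS, the copper chaperone for superoxide dismutase, had 32.92, 22.41, 29.31 and 42.12. AT3G51950, a zinc finger protein with an RNA recognition motif, had 18.47, 10.17, 9.05 and 18.55.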

How the data were processed

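Per the authors' methods and the submitters' processing notes, reads were trimmed (Trimmomatic 0.39 for RNA-seq), mapped to TAIR10 with HISAT2 2.2.0, filtered for unique reads with SAMtools, and, for pNET-seq, collapsed by molecular identifier. The deposited gene body and window reads are raw counts, pooled by the authors over 2 pNET-seq or CB-RNA-seq or 3 total RNA-seq libraries. The deposited 3'PI is a ratio of densities, and recomputing it from the counts gave the same value within 0.0051 at 100% of genes. The deposited TPM was computed by the authors over each gene, with a minimum of 1. The deposited p-value and q-value come from the authors' Fisher test of window against gene body, and genes that failed it are not listed.

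Distances run from the deposited gene 3' end. Sequences, transcripts and names come from the RefSeq copy of TAIR10, in which 98.8% of 121244 listed introns have GT and AG ends and 1260 of the 1262 genes were found. The log2 ratio is that of the deposited 3'PI values. Fisher's exact test of window and gene body counts was two-sided, with Benjamini-Hochberg adjustment at 0.05, and was tested on simulated data. The tools were Python 3.11.15 with pandas 2.3.3, scipy 1.17.1, numpy 2.4.6 and, for plots, matplotlib 3.10.9. The 8 tables hold no values per library, and the read counts behind a value are given for some of the named genes only. Organellar genes and 1 intron table were not used.

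The genes and lists were chosen with earlier results of these data known. Named genes are those with most window reads (6), the highest 3'PI with at least 100 gene body reads (6), most window reads upstream in all 4 tables (6) or after the 3' end in the 3 others (4), the 3 largest called changes each way, those next to the limit, 3 from each list and class of place, and genes the study draws. AT4G30993 was named after its values were seen. Alternatives covered the read minimum, the limit, the source of the 3' end, overlaps, the tolerance and the threshold.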

Additional observations from a re-analysis of the deposited data

How the results depend on the processing

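Of 91 alternative values, 52 stayed within the interval of the reported one (counts within 1.5 times) and 39 did not. With a limit of 100 bp, 543 genes had an upstream window (3.14%), their median 3'PI was 4.38, and 61.8% (xrn3), 63.6% (GEX1A) and 65.0% (DMSO) stayed upstream. With the annotated 3' end, these values were 4469, 25.9%, 9.78, 87.1%, 85.1% and 85.6%. The share of genes was 8.03% and the share upstream in xrn3 76.1% with at least 100 gene body reads, and with an adjusted p under 0.01 in Col-0 the share of genes was 6.64%, with a median 3'PI of 6.13 and 4 introns. Of the alternatives chosen after seeing the data, leaving out windows at the outermost place gave 5.99%, and at least 30 window reads in Col-0 gave 6.49%, 7.23, 4 introns and 79.4% upstream in xrn3. With at least 30 window reads in the other table, 75.7%, 83.4% and 77.3% stayed upstream and 74.8%, 80.1% and 75.6% within 25 bp (xrn3, GEX1A and DMSO). Within 10 bp stayed 62.4%, 51.8% and 54.5%, and within 50 bp 74.1%, 72.2% and 73.5%. Higher in xrn3 were 77 genes at a threshold of 0.01 and 62 with at least 1.5-fold, and lower 22 with at least 1.5-fold. Higher in GEX1A were 2 and 4. The cause of these differences was not tested, apart from those that the alternative makes itself by keeping fewer genes or fewer of the same calls. The order of the 3 tables was not stable: the share within 25 bp was lower in GEX1A than in xrn3 as reported and higher with at least 30 window reads, and with at least 100 gene body reads the share upstream in xrn3 lay above those in GEX1A (73.4%) and DMSO (73.0%). Comparisons with other genes were not rerun under these alternatives. No paired analysis was possible because the tables hold pooled values, and for the same reason no library could be left out.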
